A study of Mus musculus with 2 samples.

Results

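The genes described here move calcium ions out of the cytosol or release them from internal stores. They are the endoplasmic reticulum pump gene Atp2a2, the plasma-membrane pump genes Atp2b1, Atp2b2, Atp2b3 and Atp2b4, the sodium-calcium exchanger genes Slc8a1 and Slc8a2, the inositol trisphosphate (IP3) receptor gene Itpr1, and the ryanodine receptor genes Ryr2 and Ryr3. They were chosen by gene name, and all 10 were found once each among the 55536 genes of the tables. The tissue was left cerebral cortex, taken at 18 to 20 months of age from females of B6CASTF1/J, the F1 cross of C57BL/6J and CAST/EiJ, and its total RNA was sequenced. All samples form 1 group of 2 libraries, replicate 1 and replicate 2, each from 300 ng with ERCC spike-ins added, and no treatment or contrast is labelled. The labels number the samples as biological replicates, but both carry the same donor entry, so it is unclear whether they came from separate animals. The SD given throughout is the spread of these 2 libraries only. With 1 group there was no comparison of conditions to test, so every value below is a description.

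A neuron keeps its cytosolic calcium far below that outside the cell and inside the endoplasmic reticulum. SERCA pumps, encoded by the Atp2a genes, use ATP to load calcium into the endoplasmic reticulum, and PMCA pumps, encoded by the Atp2b genes, use ATP to expel it across the plasma membrane. Exchangers of the Slc8 (NCX) family expel calcium against the inward flow of sodium and carry more ions per unit time at lower affinity. IP3 receptors open when receptor signalling makes IP3, and ryanodine receptors open when cytosolic calcium itself rises, so both release the store that SERCA fills.

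Several of these genes make proteins that differ at an alternative exon, and the exons whose use is reported below are printed here in mm10 coordinates, cut from the GENCODE M21 transcripts. In PMCA genes an exon in the cytosolic C-terminal tail, within the region that binds calmodulin, is either included (the a form) or skipped (the b form). They are shown because their use differed widely between the 4 pump genes. Each line gives the gene, the position, the strand and then the whole exon in capitals, 5′ to 3′.
Atp2b1 (chr10:99019278-99019431, plus strand): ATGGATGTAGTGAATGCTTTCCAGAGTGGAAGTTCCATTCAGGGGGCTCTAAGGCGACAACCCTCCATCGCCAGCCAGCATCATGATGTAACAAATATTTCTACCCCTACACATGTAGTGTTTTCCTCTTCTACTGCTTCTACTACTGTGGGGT
Atp2b2 (chr6:113755217-113755388, minus strand): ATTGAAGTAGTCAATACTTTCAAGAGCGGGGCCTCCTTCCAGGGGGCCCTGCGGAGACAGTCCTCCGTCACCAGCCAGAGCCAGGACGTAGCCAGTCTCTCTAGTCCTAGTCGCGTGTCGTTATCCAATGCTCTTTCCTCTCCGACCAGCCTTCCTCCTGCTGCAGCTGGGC
Atp2b3 (chrX:73559864-73560017, plus strand): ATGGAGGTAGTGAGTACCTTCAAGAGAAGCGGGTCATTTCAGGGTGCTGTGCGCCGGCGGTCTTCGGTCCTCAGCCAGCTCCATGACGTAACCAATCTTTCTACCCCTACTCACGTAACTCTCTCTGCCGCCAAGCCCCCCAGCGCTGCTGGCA
Atp2b4 (chr1:133711642-133711822, minus strand): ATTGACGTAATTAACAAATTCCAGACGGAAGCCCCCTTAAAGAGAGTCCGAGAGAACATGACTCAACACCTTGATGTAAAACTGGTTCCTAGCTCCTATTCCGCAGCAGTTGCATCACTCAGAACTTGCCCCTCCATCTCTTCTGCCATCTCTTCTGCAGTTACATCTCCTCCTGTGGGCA

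The exon was 154 bases long in Atp2b1 and Atp2b3, 172 bases in Atp2b2 and 181 bases in Atp2b4. Every one of these lengths leaves a remainder of 1 base after division into codons, so inclusion shifts the reading frame of what follows. The annotated coding length was accordingly shorter with the exon than without it, 3519 against 3660 bases in Atp2b3 (transcripts Atp2b3-203 and Atp2b3-202) and 3516 against 3615 bases in Atp2b4 (Atp2b4-203 and Atp2b4-206). The Atp2b4 exon printed and measured here is that of Atp2b4-203. The more abundant Atp2b4-201 carries a longer form of it, described below, and has a coding length of 3498 bases. Pairwise identity of the 4 exons ran from 62.3% over 151 aligned bases (Atp2b1 with Atp2b4) to 73.9% over 153 aligned bases (Atp2b2 with Atp2b3). Gaps are left out of these percentages, 33 bases in the former pair and 20 in the latter.

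The SERCA2 gene Atp2a2 ends its coding sequence in either of 2 ways, shown because they separate the widely expressed long form, SERCA2b, from the short form known from heart and slow muscle, SERCA2a. In both lines the shared exon end is in lower case and the bases found in that form alone are in capitals, on the minus strand of chromosome 5.
Atp2a2-201, long end (chr5:122457154-122457302): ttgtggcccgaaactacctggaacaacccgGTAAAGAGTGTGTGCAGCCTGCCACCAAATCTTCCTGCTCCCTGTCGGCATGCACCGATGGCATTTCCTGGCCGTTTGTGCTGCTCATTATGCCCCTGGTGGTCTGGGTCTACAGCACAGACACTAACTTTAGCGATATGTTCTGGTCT
Atp2a2-202, short end (chr5:122454294-122454304): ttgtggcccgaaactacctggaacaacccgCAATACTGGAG

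PMCA2 has further alternative exons in the first cytosolic loop, and Atp2b2-202 is the annotated transcript that carries all of those printed here (the w form). The 3 exons lie on the minus strand and measure 33, 60 and 42 bases, each a whole number of codons. Capitals mark the alternative exon and lower case its 30 flanking bases on either side in the spliced RNA.
Atp2b2 exon of 33 bases (chr6:113803747-113803779): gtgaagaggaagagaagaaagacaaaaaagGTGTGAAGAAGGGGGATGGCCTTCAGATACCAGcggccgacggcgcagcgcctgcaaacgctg
Atp2b2 exon of 60 bases (chr6:113802486-113802545): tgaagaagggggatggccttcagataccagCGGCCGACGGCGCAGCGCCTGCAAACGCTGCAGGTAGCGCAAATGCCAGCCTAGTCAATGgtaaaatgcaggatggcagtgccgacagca
Atp2b2 exon of 42 bases (chr6:113797110-113797151): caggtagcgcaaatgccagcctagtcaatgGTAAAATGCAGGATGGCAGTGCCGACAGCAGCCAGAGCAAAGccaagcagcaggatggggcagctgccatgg

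The NCX2 gene Slc8a2 has 2 annotated transcripts, and the exon that tells them apart is 18 bases long, again in capitals between 30 flanking bases of Slc8a2-202 on the plus strand.
Slc8a2 exon of 18 bases (chr7:16150574-16150591): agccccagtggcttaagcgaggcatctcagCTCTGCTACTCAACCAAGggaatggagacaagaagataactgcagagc

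The libraries held 32504959 expected counts (replicate 1) and 24899781 (replicate 2), of which 32357983 and 24798683 fell on genes. Levels are given in TPM, a unit that corrects for depth and transcript length, so genes can be compared with each other. Expected counts of the members ran from 1608 (Ryr3, replicate 1) to 41817 (Atp2b2, replicate 1). The 10 members all exceeded 1 TPM in both libraries, and their median was 101 TPM in replicate 1 and 109 TPM in replicate 2 (105 ± 5.63, SD, n = 2). The median of the 12844 nuclear protein-coding genes above 1 TPM in both libraries was 15.8 TPM. In whole tissue, fewer cells of a type and less RNA per cell cannot be told apart.

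**Figure D1:**
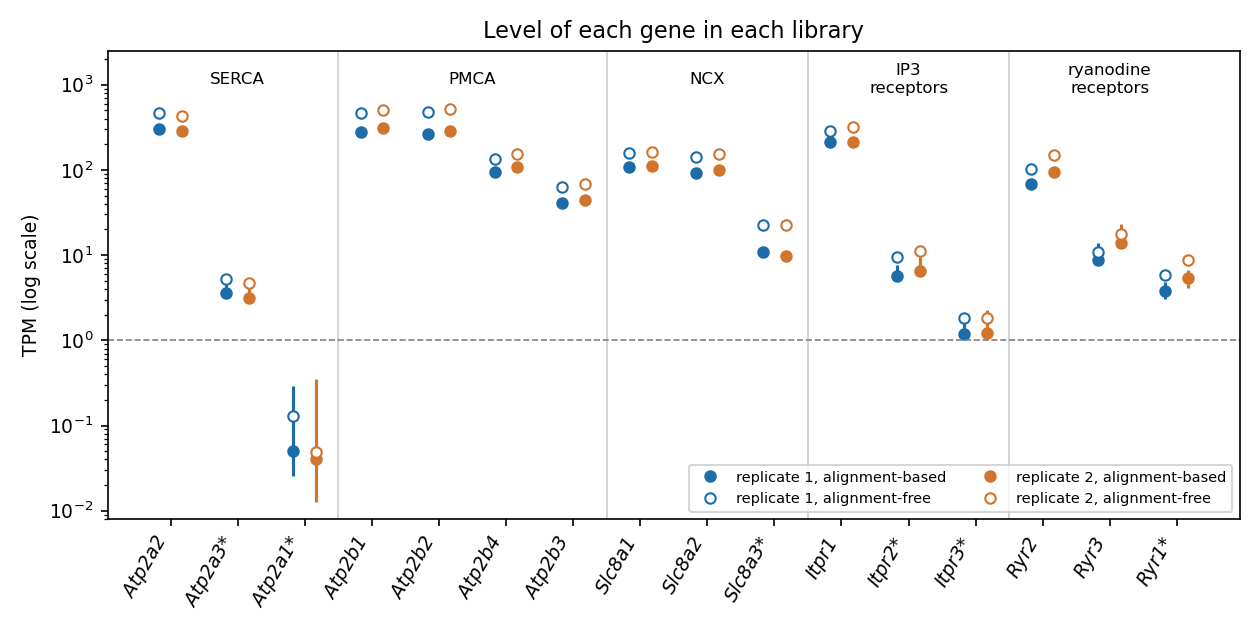
Level of each member and of the paralogues in the same families (marked *) in TPM on a log axis; filled points are the alignment-based tables with the quantifier's credibility bounds as bars, open points the alignment-free tables, blue replicate 1 and orange replicate 2, and the dashed line marks 1 TPM. In every family except PMCA, at least 1 paralogue sits far below the leading gene, down to Atp2a1 at 0.05 and 0.04 TPM.

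Atp2a2, on chromosome 5 (mm10, 122453513 to 122502225, minus strand), was the only abundant SERCA gene. Its level was 305 TPM in the first library and 284 TPM in the second (295 ± 14.7, SD, n = 2), rank 144 of the 12844 expressed coding genes. Its paralogue Atp2a3, the SERCA3 gene, stood at 3.63 and 3.12 TPM. Atp2a1, the fast-muscle SERCA1 gene, had 4 and 2 counts, close to the 3 counts that a count of 0 allows. Atp2a2 therefore made up 98.8% and 98.9% of the summed SERCA TPM.

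Most Atp2a2 RNA was assigned to the long coding end. Atp2a2-203 led with 61.6% and 64.0% of the gene's TPM, Atp2a2-201 held 19.8% and 19.7%, and the short-end transcript Atp2a2-202 held 17.3% and 14.6%. Atp2a2-203 is annotated as a target of nonsense-mediated decay, the pathway that degrades RNAs with an early stop, yet its coding sequence of 3132 bases is the same as that of Atp2a2-201. The 2 long-end transcripts together held 82.5% and 85.2% of the TPM of these 3 (83.8% ± 1.92, SD, n = 2). Without Atp2a2-203 the long end fell to 53.4% and 57.5% (55.4% ± 2.89, SD, n = 2), so the size of that share rests on this 1 transcript. In the alignment-free tables the long-end share was 77.4% ± 1.25 (SD, n = 2) with it and 56.6% ± 1.34 without it.

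The 4 PMCA genes were all expressed and differed in level. Atp2b1, the broadly expressed PMCA1 gene on chromosome 10 (98914406 to 99026143, plus strand), stood at 280.0 and 309.7 TPM (295 ± 20.99, SD, n = 2). Atp2b2, the PMCA2 gene on chromosome 6 (113743831 to 114042613, minus strand), stood at 263 and 286 TPM (275 ± 16.4), and its range overlapped that of Atp2b1. Atp2b4, the PMCA4 gene on chromosome 1 (133699457 to 133801041, minus strand), reached 94.4 and 108 TPM (101 ± 9.60). Atp2b3, the PMCA3 gene on chromosome X (73503086 to 73571005, plus strand), was the lowest of the 4 at 40.8 and 44.1 TPM (42.4 ± 2.37). The family summed to 678 and 748 TPM, against 309 and 288 TPM for the SERCA genes. Within that sum Atp2b1 took 41.3% ± 0.0844, Atp2b2 38.5% ± 0.370, Atp2b4 14.2% ± 0.365 and Atp2b3 5.95% ± 0.0796 (SD, n = 2 each). Incomplete or short noncoding models, described below, held part of the Atp2b1 and Atp2b4 TPM. The comparison of the PMCA and SERCA sums therefore depends on transcript models too.

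The close levels of Atp2b1 and Atp2b2 depend on which transcripts the counts are divided over. Atp2b2 drew 41817 and 33608 counts and Atp2b1 22272 and 18014, but the mean effective length used for TPM was 7045 and 6957 bases for Atp2b2 against 3528 and 3449 bases for Atp2b1. Incomplete transcript models held 57.3% and 56.4% of the Atp2b1 TPM while drawing 22.8% and 23.4% of its counts. The largest were Atp2b1-210 (26.4% and 25.1% of the TPM) and Atp2b1-208 (18.7% and 18.5%), beside 37.9% and 35.9% for the complete Atp2b1-201. Atp2b1-207 reached 7.88% and 7.39%, and 13.3% on average in the alignment-free tables. On a scale chosen after seeing the data, counts per 1e6 counts (CPM) per kilobase of the longest complete coding transcript, Atp2b2 stood at 146 and 153 and Atp2b1 at 96.5 and 102, with no overlap.

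The C-terminal exon was used to very different extents in the 4 pump genes. Its share is the TPM of transcripts that include the exon over the TPM of all annotated transcripts that span it. Inclusion was 90.7% and 93.8% in Atp2b4 (92.2% ± 2.16, SD, n = 2) and 77.8% and 78.1% in Atp2b3 (77.9% ± 0.204). It was 41.1% in both libraries in Atp2b1 (41.1% ± 0.0504) and 12.6% and 12.5% in Atp2b2 (12.5% ± 0.0294). The 4 ranges did not overlap, and the order of the genes was the same in the alignment-free tables, where the means were 85.7%, 75.5%, 41.0% and 13.8%. The a form thus prevailed in the TPM of the 2 less abundant pump genes, and the b form in that of the 2 abundant ones.

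**Figure D2:**
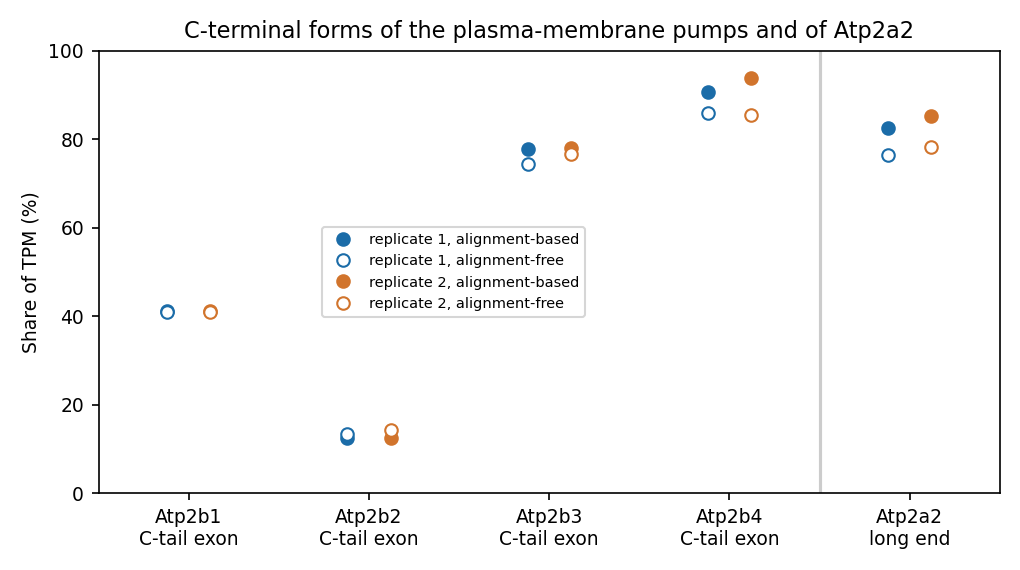
Share of TPM in percent (vertical axis) that includes the C-terminal exon in each PMCA gene, and share with the long coding end in Atp2a2; filled points are alignment-based and open points alignment-free, with blue for replicate 1 and orange for replicate 2. Points of Atp2b1 nearly coincide, whereas the alignment-free points of Atp2b4 (mean 85.7%) and Atp2a2 (mean 77.4%) lie below the alignment-based ones (means 92.2% and 83.8%).

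Some of these shares rest on few transcript models. For Atp2b1 the including transcript, Atp2b1-210, is an incomplete model of 1460 bases, set against the complete Atp2b1-201 of 7130 bases. For Atp2b2 the including transcript, Atp2b2-206, is annotated as a target of nonsense-mediated decay, and the 4 skipping transcripts are complete. In Atp2b4, Atp2b4-201 and Atp2b4-203 both include the exon, the former with 10 more bases at its 3′ edge, and Atp2b4-206 and Atp2b4-207 skip it. Most of the including TPM lay on the longer form, with Atp2b4-201 at 46.4 and 57.0 TPM and Atp2b4-203 at 16.9 and 15.8 TPM. Atp2b3 has 1 spanning transcript of each kind, Atp2b3-203 at 28.8 and 32.7 TPM and Atp2b3-202 at 8.23 and 9.18 TPM. Its remaining transcript, Atp2b3-201, does not span the exon and stood at 3.73 and 2.25 TPM. In Atp2b4 the non-spanning Atp2b4-204, a noncoding model of 588 bases, held 26.2% and 28.2% of the TPM with 2.26% and 2.44% of the counts.

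The transcript with the loop exons of Atp2b2 held a minority of its TPM. Atp2b2-202, which holds all 3, stood at 45.3 and 43.8 TPM, or 17.9% and 16.3% of the TPM of spanning transcripts (17.1% ± 1.08, SD, n = 2). The 4 other spanning transcripts skip all 3 exons, and the remainder was assigned to them. No spanning transcript holds only some of these exons, so RNA of that kind could not be told apart here. The alignment-free share was higher, at 22.7% ± 0.179. The leading Atp2b2 transcript changed with the table: Atp2b2-203 led with 35.7% and 36.0% in the alignment-based tables, and Atp2b2-201 with 35.5% and 32.7% in the alignment-free ones. These 2 have the same coding sequence of 3594 bases, so the difference touches untranslated sequence only.

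Among the exchangers, Slc8a1 and Slc8a2 were both abundant. Slc8a1, the NCX1 gene on chromosome 17 (81373105 to 81738377, minus strand), stood at 107 and 109.6 TPM (108 ± 1.65, SD, n = 2). Slc8a2, the NCX2 gene, known mainly from brain and lying on chromosome 7 (16129826 to 16161063, plus strand), stood at 92.2 and 98.7 TPM (95.4 ± 4.62), below both values of Slc8a1. The NCX3 gene Slc8a3 reached 10.8 and 9.64 TPM. The shares in the NCX sum were 50.7% ± 0.510 for Slc8a1, 44.6% ± 1.03 for Slc8a2 and 4.79% ± 0.517 for Slc8a3 (SD, n = 2 each).

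The Slc8a1 value is the one most dependent on transcript models among the exchangers. An incomplete model of 2017 bases, Slc8a1-205, held 53.2% and 50.3% of its TPM with 16.0% and 13.4% of its counts. The complete Slc8a1-204, of 18464 bases, held 26.0% and 30.9% of the TPM with 74.7% and 79.0% of the counts. Per kilobase of that longest transcript, Slc8a1 stood at 25.8 and 29.0 CPM, and Slc8a2 at 55.9 and 58.7, so the order of the exchangers turned around on this scale. Slc8a1-201 and Slc8a1-203, both with 2910 coding bases, held 14.2% and 3.14% of the TPM (the former) and 3.41% and 11.5% (the latter), so their order differed between the libraries. In the alignment-free tables Slc8a1-201 led in both, with 17.6% and 11.6% against 0.0615% and 3.54%.

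Slc8a2 was split almost evenly at its 18-base exon. Slc8a2-202, with the exon, held 46.4% and 48.4% of the TPM (47.4% ± 1.38, SD, n = 2), and Slc8a2-201, without it, held 53.6% and 51.6%. In the alignment-free tables the share with the exon was 43.7% ± 1.99. All Slc8a2 TPM belonged to these 2 complete coding transcripts.

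Itpr1 was the leading release channel in this tissue. The gene, on chromosome 6 (108213096 to 108551109, plus strand), stood at 209.7 and 210.4 TPM (210.1 ± 0.516, SD, n = 2), the smallest relative spread among the members in the alignment-based TPM. The alignment-free values, 289 and 315 TPM, lay further apart. Itpr2 reached 5.68 and 6.55 TPM and Itpr3 1.18 and 1.21 TPM. Itpr1 made up 96.8% and 96.4% of the summed TPM of the IP3 receptors. Its leading transcript was Itpr1-205 in the alignment-based tables (43.3% and 44.0%) and Itpr1-201 in the alignment-free ones (40.3% and 34.1%). Their coding lengths of 8244 and 8247 bases differ by 3. The incomplete models Itpr1-213 (15.2% and 13.3%) and Itpr1-208 (11.2% and 12.2%) came next, of which Itpr1-213 is annotated as a decay target. In the alignment-free tables Itpr1-213 held only 4.82% and 2.43%, and Itpr1-202 reached 10.2% on average. Itpr1 is best known from Purkinje cells of the cerebellum, whose markers are given below.

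Ryr2 and Ryr3 were the members with the widest spread between the libraries. Ryr2, the ryanodine receptor gene of heart and brain, on chromosome 13 (11553102 to 12106945, minus strand), was lower in replicate 1, at 68.0 TPM, than in replicate 2, at 94.5 TPM (81.2 ± 18.7, SD, n = 2). Ryr3, on chromosome 2 (112631355 to 113217096, minus strand), stood at 8.76 and 13.9 TPM (11.3 ± 3.61). The skeletal-muscle gene Ryr1 reached 3.82 and 5.35 TPM. All 3 were higher in replicate 2. The quantifier's credibility bounds, whose level the tables do not state, did not overlap for Ryr2 (64.0 to 69.7 TPM against 88.0 to 95.5 TPM) and overlapped for Ryr3 (7.77 to 13.7 against 12.3 to 23.4). The shares within the family hardly moved: Ryr2 held 84.4% and 83.1%, Ryr3 10.9% and 12.2%, and Ryr1 4.74% and 4.70%.

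**Figure D3:**
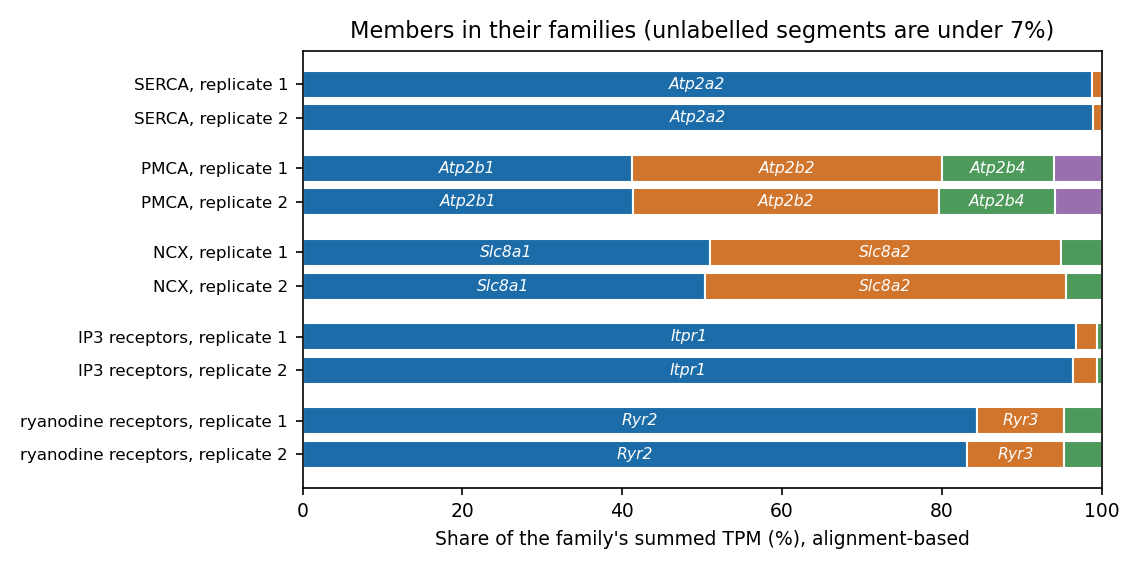
Share of each gene in its family's summed alignment-based TPM, in percent, 1 bar per family and library. Atp2a2, Itpr1 and Ryr2 fill most of their bars, whereas Atp2b1 with Atp2b2, and Slc8a1 with Slc8a2, divide theirs.

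In order of mean TPM, the members ran Atp2a2, Atp2b1, Atp2b2, Itpr1, Slc8a1, Atp2b4, Slc8a2, Ryr2, Atp2b3 and Ryr3. Neighbours were called apart where the lower library of the higher gene exceeded the higher library of the lower gene. This held for 4 of the neighbouring pairs: Atp2b2 over Itpr1, Itpr1 over Slc8a1, Ryr2 over Atp2b3, and Atp2b3 over Ryr3. On this scale Atp2a2, Atp2b1 and Atp2b2 could not be ordered among themselves, nor could the run from Slc8a1 to Ryr2 at each neighbouring step. By alignment-free TPM the order began with Atp2b2 (480.4 and 523 TPM) and Atp2b1 (467 and 506 TPM), with Atp2a2 (459 and 433 TPM) apart below them, and 6 neighbouring pairs were apart. Per kilobase of the longest complete coding transcript the order began with Atp2a2 (236 and 216 CPM per kilobase) and Atp2b2, and Slc8a1 fell to the ninth place. Ryr3 was last on all 5 scales examined.

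The tables place much member TPM on models that do not encode a complete protein. Retained-intron models, spliced RNAs annotated as keeping an intron, held 50.1% and 54.1% of the Ryr3 TPM and 15.1% and 23.6% of the Ryr2 TPM. By counts these models were minor, 5.63% and 6.40% of Ryr3 and 2.19% and 3.84% of Ryr2, and the models are short. Ryr3-203, a model of 430 bases, took 20.0% and 21.6% of the Ryr3 TPM from 13.1 and 16.7 counts. The complete Ryr3-211, of 15468 bases, took 49.9% and 45.9% from 1517 and 1651 counts. The retained-intron models Ryr3-205 (12.54% and 11.97%) and Ryr3-206 (11.97% and 9.23%) made up most of the rest, and Ryr3-205 fell to 0.230% on average in the alignment-free tables. In Ryr2 the complete Ryr2-201, of 16814 bases, held 52.5% and 45.8% of the TPM and 89.3% and 86.7% of the counts, and the incomplete Ryr2-204 held 14.2% and 12.2% of the TPM.

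The retained-intron share was higher in replicate 2 in all 6 members with such a model above 0 TPM. It went from 1.24% to 1.75% in Atp2a2, from 4.81% to 7.67% in Atp2b1, from 1.98% to 3.39% in Atp2b2 and from 2.82% to 5.80% in Itpr1. The same direction was common elsewhere: of 7370 expressed nuclear coding genes with such a model above 0 TPM, 79.4% had the higher share in replicate 2, and the median share over the 7492 genes with such a model was 10.1% in replicate 1 and 14.5% in replicate 2. The direction in these 6 members was thus that of most genes. On complete coding transcripts alone Ryr2 stood at 41.3 and 51.5 TPM and Ryr3 at 4.38 and 6.37 TPM, log2 ratios of 0.32 and 0.54 in place of 0.47 and 0.66 on all transcripts.

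**Figure D4:**
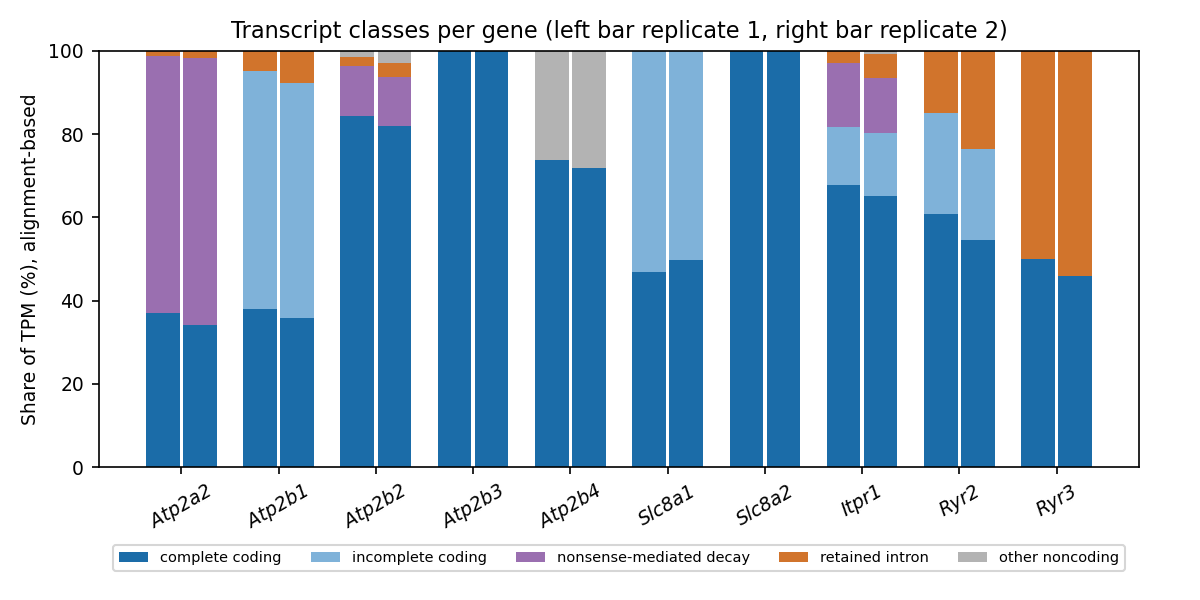
Share of each member's alignment-based TPM, in percent, by annotated transcript class, with replicate 1 on the left and replicate 2 on the right of each pair. Slc8a2 and Atp2b3 consist of complete coding transcripts, Atp2a2 is led by the transcript annotated as a decay target, and the retained-intron segment of Ryr2 grows from 15.1% to 23.6%.

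Differences between the libraries were measured on counts, scaled between libraries by the trimmed mean of M-values (TMM), as the log2 ratio of replicate 2 to replicate 1. None of the 10 members passed 1.5-fold in either direction. Over all 18234 genes tested, 10.7% passed it upward and 3.60% downward, and over the 14504 nuclear coding genes 3.14% and 3.11%. Ryr3 came closest with a ratio of 0.51, followed by Ryr2 with 0.28, Slc8a1 with 0.16 and Atp2b4 with 0.15. Ratios of Atp2b3, Atp2b1, Slc8a2 and Atp2b2 lay between 0.06 and 0.08. Itpr1 was at -0.07 and Atp2a2 at -0.13, and both turned positive, to 0.09 and 0.03, when the spike-ins set the scale. Itpr1 also turned, to 0.005, by the ratio of deposited TPM. Spike-in scaling raised the median of all genes by 0.16. On the spike-in scale Ryr3 passed 1.5-fold with 0.67, where 14.3% of all genes passed upward and 2.13% downward. By the ratio of deposited TPM, Ryr3 passed 1.5-fold with 0.66, where 13.0% of 18193 genes passed upward and 3.97% downward.

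Counting error of these ratios was small for all members, from 0.011 (Atp2b2) to 0.050 (Ryr3) on the log2 scale as a standard error. The ratio also varied with the length of genomic DNA that a gene spans. Over tested nuclear coding genes the median ratio was -0.10 for spans up to 10 kb, -0.01 for 30 to 100 kb and 0.05 above 300 kb, with a Spearman correlation of 0.18 across 14504 genes, which are not independent replicates. Ryr2 spans 554 kb and Ryr3 586 kb. Among the 217 tested genes over 500 kb the median was 0.07, 15.7% had a ratio as high as that of Ryr2 and 5.53% as high as that of Ryr3. Next in span came the paralogue Itpr2 (394 kb, ratio 0.23) and the members Slc8a1 (365 kb, 0.16), Itpr1 (338 kb, -0.07) and Atp2b2 (299 kb, 0.06). The part that gene span plays in the ryanodine receptor values was not tested.

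**Figure D5:**
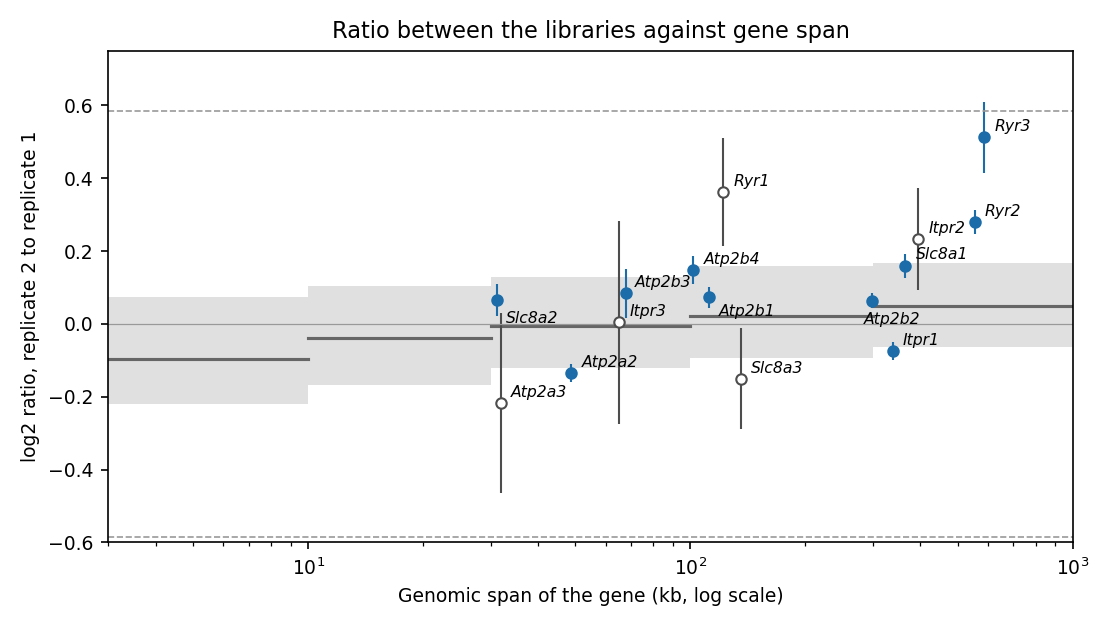
log2 ratio of replicate 2 to replicate 1 (vertical axis) against genomic span in kb (log axis) for members (filled) and paralogues (open), with bars for the 95% counting interval; grey bands and lines are the quartiles and medians of nuclear coding genes by span, and dashed lines mark 1.5-fold. Ryr3 at 0.51 and Ryr2 at 0.28 lie above the band of the longest genes, while Itpr1 at -0.07 lies just below it.

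Genes that work with the members were taken from 6 lists of 48 genes, of which 37 exceeded 1 TPM in both libraries. In the list of secretory pathway pumps and further exchangers, 5 of 8 did. The neuronal potassium-dependent exchanger gene Slc24a2 reached 140.5 and 124 TPM, the Golgi pump gene Atp2c1 86.3 and 86.6 TPM, and Slc24a3 42.2 and 41.8 TPM. Atp2c2 (0.88 and 0.78 TPM), Slc24a5 (0.18 and 0.15) and the photoreceptor gene Slc24a1 (0.03 in each) stayed below 1 TPM. Slc8b1, the mitochondrial sodium-calcium exchanger gene, was the only gene of this list past 1.5-fold, with 170 and 73 counts and a ratio of -0.83.

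The peptides that restrain SERCA in muscle were nearly absent beside the abundant Atp2a2. Pln (phospholamban) stood at 0.63 and 0.41 TPM, and Sln (sarcolipin) had 0 and 4 counts. The muscle store proteins Hrc (0.08 and 0.10 TPM) and Casq1 (0.05 and 0.13 TPM) were similarly low, and Casq2 went from 37 to 12 counts, a ratio of -1.14. The other 4 of the 9 exceeded 1 TPM, led by the calcium-binding chaperones Calr (203 and 181 TPM), Canx (184 and 164 TPM) and Hspa5 (146 and 152 TPM).

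All 6 genes of store-operated entry exceeded 1 TPM. Saraf, which dampens this entry, stood at 119 and 108 TPM, and the store sensors Stim2 and Stim1 at 36.4 and 37.1 TPM and at 31.8 and 35.4 TPM. The immunoglobulin-family subunits of the plasma-membrane pumps were abundant too: Nptn stood at 426 and 416 TPM and Bsg at 262 and 216 TPM. Of 13 partners of the release channels 11 exceeded 1 TPM, led by Fkbp1a (319 and 309 TPM), the scaffold gene Homer1 (136 and 187 TPM) and Ahcyl1 (140.1 and 138 TPM). Trdn (0.25 and 0.34 TPM) and Jph2 (0.24 and 0.12 TPM), known from cardiac and skeletal muscle, did not, and Jph2 had a ratio of -0.94 on 22 and 8 counts.

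In the list of mitochondrial calcium genes 9 of 10 exceeded 1 TPM, led by the outer-membrane channels Vdac1 (239 and 218 TPM), Vdac2 (108 and 92.0 TPM) and Vdac3 (82.5 and 74.3 TPM). Mcub, a pore subunit that dampens uptake, was below 1 TPM in replicate 1 (0.44 and 1.56 TPM, ratio 0.92 on 12 and 19 counts). Of the 43 list genes with enough counts, 1 passed 1.5-fold upward and 3 downward, where 3.14% and 3.11% of nuclear coding genes and 10.7% and 3.60% of all genes did. By list the median ratio was -0.09 for secretory pumps and further exchangers, -0.21 for SERCA regulators and 0.02 for store-operated entry. It was -0.21 for pump subunits, -0.03 for channel partners and -0.16 for mitochondrial genes. Spike-in scaling turned the medians of the secretory and exchanger list, channel partners and mitochondrial genes to 0.07, 0.13 and 0.00. The TPM ratio turned the channel partners to 0.08. Store-operated entry turned to -0.05 by alignment-free counts and to -0.006 without the count filter. Over the 43 genes the median ratio was -0.10, with 32 below 0, and the members' median was 0.08, with 8 of 10 above 0. On the spike-in scale the medians were 0.06 for the lists and 0.24 for the members, and all 10 members were then above 0. The median of all tested genes was itself 0.16 on that scale, and their share above 0 there was not computed. On the TMM scale the median of all 18234 tested genes was 0.00, with 9121 above 0 and 9113 below. That of the 14504 nuclear coding genes was -0.03, with 6414 above 0 and 8090 below.

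Cell markers bear on which tissue these levels describe. All 5 excitatory neuron markers exceeded 1 TPM, and their summed level was 2471 and 2549 TPM. All 6 inhibitory neuron markers did too, at 547 and 470 TPM. Of 7 cerebellar markers, 3 exceeded 1 TPM, and Calb1, also a cortical gene, made up 59.0 and 56.8 of the summed 69.9 and 66.2 TPM. Gabra6 had 0 counts in both libraries, and the Purkinje gene Pcp2 had 1 and 0. Cbln3 had 8 and 10 counts and Fat2 40 and 27 (0.12 and 0.11 TPM), while Zic2 stood at 8.10 and 6.42 TPM and Car8, another Purkinje gene, at 2.45 and 2.64 TPM. The part of any cerebellar RNA in the Itpr1 level was not tested.

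Of 8 markers of cardiac and skeletal muscle, 3 exceeded 1 TPM and the sum was 15.2 and 17.6 TPM. The atrial gene Myl7 had 0 counts in both, and Ckm had 3 and 0. Tnnt2 stood at 5.56 and 6.84 TPM, Acta1 at 5.07 and 4.67 TPM and Myh6 at 2.13 and 3.56 TPM, and Myl2, Tnni3 and Mylpf had at most 9 counts in a library. Atp2a2 and Ryr2 also serve heart muscle, and the part of muscle RNA in their levels was not tested. All 5 smooth muscle and mural markers exceeded 1 TPM, summing to 33.6 and 32.8 TPM. Of 5 dentate gyrus markers, 2 exceeded 1 TPM, and the sum was 13.6 and 15.6 TPM.

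Glial and vascular markers were present at 302 and 280 TPM for 5 astrocyte genes, 572 and 482 TPM for 5 oligodendrocyte genes, 112 and 101 TPM for 5 microglial genes and 69.0 and 67.6 TPM for 4 endothelial genes, all above 1 TPM. Gfap, an astrocyte gene that rises in reactive astrocytes, stood at 74.1 and 40.9 TPM, a ratio of -0.90. The other astrocyte markers did not share this drop, with ratios of 0.16 (Gja1), 0.01 (Slc1a3), -0.06 (Aqp4) and -0.14 (Aldh1l1). The median ratio of the astrocyte list was -0.06, and 0.10 on the spike-in scale. The median ratio was -0.32 for inhibitory neuron markers, -0.34 for oligodendrocyte markers, -0.26 for microglial markers and -0.02 for excitatory neuron markers. The spike-in scale gave -0.16, -0.18, -0.10 and 0.14. The members' ratios stood beside these shifts, and the part of cell makeup in them was not tested.

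Reads that match several genes are divided between them and leave fractional expected counts. As deposited, with no rounding, these counts were exactly whole in both libraries for 8 of the 10 members, and the exceptions were Atp2a2 and Atp2b1. Alignment-free TPM exceeded alignment-based TPM by a median factor of 1.62 over expressed nuclear coding genes. For the members the factor ran from 1.26 (Ryr3) to 1.83 (Atp2b2). In Atp2b2 a model of 659 bases, Atp2b2-207, took 11.4% ± 0.656 of the alignment-free TPM and 0.470% ± 0.0415 of the alignment-based TPM (SD, n = 2 each). Aven, a gene on the opposite strand that overlaps Ryr3, had 148 and 111 counts, against 1608 and 1764 for Ryr3.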

How the data were processed

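Total RNA-seq of left cerebral cortex was available as 2 libraries of 1 group, grouped and numbered by the labels. The genome is mm10, per the labels, and the annotation GENCODE M21, per a note the authors deposited beside the tables, with aligner and quantifier not given in the sources used here. The deposited alignment-based gene and transcript tables hold expected counts, TPM, posterior mean TPM with credibility bounds, and isoform shares in percent, per the file headers. Alignment-free tables, likewise deposited, give TPM beside estimated counts. The deposited credibility bounds go with the posterior mean, so a TPM can lie outside them. Percent shares were recomputed from the deposited TPM. The effect of CAST/EiJ variants on read placement was not analysed here.

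Members were matched by gene name and joined by gene identifier, and coordinates, transcript classes and exon sequences came from GENCODE M21. Spike-ins (97) and short-RNA entries (26248) were left out of gene counts. For ratios, expected counts were rounded, genes averaging at least 10 counts entered, and log2 CPM with a prior count of 2 were taken after TMM scaling (edgeR 4.0.16 in R 4.3.3; DESeq2 1.42.0 as an alternative). The floor of 3 counts equals 0.0927 and 0.121 CPM, and counting errors cover counting only, since no molecular identifiers are given. A transcript included an exon when it covered 90% of it with edges within 50 bases. Exons were aligned globally with Biopython 1.88. The ratio step was tested on simulated data with equal numbers of genes raised and lowered. That test does not cover an unequal split such as the one over all genes here.

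The members and lists were chosen with earlier results of these data known. The text names all members and their paralogues, the 1 to 3 most abundant genes of each pathway list, list genes below 1 TPM or past 1.5-fold, and transcripts with a share of 10% or more. Marker genes are named as defining or leading their list, except that all astrocyte markers are named. Further transcripts and overlapping genes were named after their values were seen. Alternatives covered the table, scaling, filter, prior count, transcript set and each library left out.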

Additional observations from a re-analysis of the deposited data

How the results depend on the processing

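Among alternative values of the main results, 69 stayed within the libraries' spread (counts within 1.5 times, the median ratio within 0.1), and 16 moved further and are given here. Part of the 69 could not have moved, so that number does not measure stability. With 2 libraries, a level or share without 1 of them always lies within their SD of the mean. Rescaling to nuclear coding genes cancels in family shares. The C-terminal exon shares of Atp2b1, Atp2b3 and Atp2b4 rest on protein-coding transcripts only, so that restriction left them unchanged. The members' median level was 153 TPM by the alignment-free tables and 238 TPM when TPM was rescaled to nuclear protein-coding genes. Family shares by the alignment-free tables were 40.7% for Atp2b1, 48.3% for Slc8a1, 96.2% for Itpr1 and 85.5% for Ryr2, so Atp2b2 led the PMCA genes there. By posterior mean TPM they were 98.6% for Atp2a2, 96.0% for Itpr1 and 81.3% for Ryr2. Inclusion of the C-terminal exon by the alignment-free tables was 41.0% (Atp2b1), 13.8% (Atp2b2), 75.5% (Atp2b3) and 85.7% (Atp2b4). Spike-in scaling and the ratio of TPM each put 1 member, Ryr3, past 1.5-fold higher (where 14.3% and 13.0% of all genes passed), and spike-in scaling raised the members' median ratio to 0.24. The cause of these shifts was not tested. Atp2b2 fell to -0.002 by alignment-free counts. The leading transcript was kept in 8 of 10 members by the alignment-free tables and in 9 among protein-coding transcripts alone. With 1 library left out, neighbouring levels have no spread to be judged by, and no protein-coding transcript includes the Atp2b2 exon, so neither was computed. No paired analysis was possible because there is 1 group. Depth limits Atp2a1, Sln, Casq1, Hrc and the short retained-intron models, which rest on few counts.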

Other observations

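Small annotated genes inside the introns of members differed between the libraries more than the members did. Of 18 genes that overlap a member, 7 had a mean of 10 counts or more, and 6 of these lie on the member's strand outside every annotated exon of it. All 6 were past 1.5-fold higher in replicate 2, with a median log2 ratio of 1.02. Inside Ryr2, Gm47493 had 107 and 203 counts (log2 ratio 1.29) and Gm47494 had 45 and 72 (1.02), beside 0.28 for Ryr2 itself. Inside Atp2a2, Gm43359 had 84 and 133 counts (1.02) and Gm43360 had 64 and 83 (0.73), beside -0.13 for Atp2a2. Gm44167 inside Atp2b2 had 143 and 201 counts (0.86), and Gm37368 inside Atp2b4 had 11 and 39 (2.00). All but Gm44167 are annotated as transcripts still to be experimentally checked (TEC), and over all 1345 tested genes of that class the median ratio was 0.84 and 71.5% were past 1.5-fold higher. These genes were singled out after their values were seen, and no cause was tested.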
